A study of Xenopus tropicalis with 11 samples.

Results

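Goosecoid (Gsc) and Otx2 are homeodomain transcription factors of the Spemann-Mangold organizer, the dorsal region of the amphibian gastrula that patterns the head and the body axis. Both belong to the class of homeodomains that carry a lysine in the recognition helix and favour TAATCC sites. Otx2 is known as an activator of head organizer genes together with Lim1, and Gsc as a repressor that works with corepressors of the TLE (Groucho) family, so that both can be directed to related DNA with different outcomes. How the places bound by Gsc sit within the Otx2 landscape was followed here from a pair of ChIP-seq peak lists.

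The libraries came from whole embryos of Xenopus tropicalis (strain Nigerian A), collected as early gastrulae at stage 10.5, with no genetic change or treatment given in the labels. Each chromatin sample was made from 2000 to 3000 fixed embryos, and Gsc and Otx2 were each immunoprecipitated once, with an antibody of their own. Gsc has an input control to itself and Otx2 shares one with Lim1. Members were all intervals on sequences named as chromosomes, with each distinct interval counted once. This kept 17683 of the 26330 Gsc intervals and 166593 of the 194993 Otx2 peaks, on 10 chromosomes. A Gsc interval was represented by its summit, the base of highest enrichment given by the authors, and by the summit of highest fold where several were listed, as for 1149 intervals. The Otx2 list has a broad layout without summits, so an Otx2 peak has edges and a midpoint only.

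The lists differ in kind. Gsc intervals had a median width of 76 bp, with 4426 of them at the smallest width of 56 bp. Otx2 peaks had a median width of 141 bp and a smallest width of 66 bp, at which 21683 peaks (13.0%) lay, and the widest reached 3343 bp. Otx2 peaks covered 2.41% of the 1272.5 Mb spanned by the chromosomes, and Gsc intervals 0.138%, counted over all bases up to the last peak, mappable or not. Fold enrichment, the authors' ratio of signal over local background, had a median of 4.88 in the Gsc list and 3.64 in the Otx2 list, values that are not comparable between layouts. There is 1 library per factor and the read depth is unknown. No test between conditions is therefore possible, and the 95% intervals given below are exact binomial intervals that cover counting error only. Embryos were taken whole, so a shared place need not mean binding in the same cells, and enrichment from fewer bound cells and weaker binding per cell cannot be told apart.

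Most Gsc summits lay inside an Otx2 peak. Of the 17683 summits, 12750 were inside, which is 72.1% (95% interval 71.4 to 72.8) within sequence that makes up 2.41% of the chromosomes. The density of Gsc summits was 415 per Mb inside Otx2 peaks and fell to 12.2 per Mb at 1 to 250 bp from an edge. It was 4.71 per Mb beyond that up to 1000 bp, 3.24 per Mb up to 5000 bp and 3.0 per Mb up to 50000 bp. The density thus kept falling with distance, most steeply at the edge itself. The place of the interval as a whole gave nearly the same share, since 74.2% of Gsc intervals met an Otx2 peak and 363 of those did so with the summit outside.

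Summits outside were spread over a wide range of distances. Among the 4933 of them, the median distance to the nearest Otx2 edge was 1725 bp, with 10% closer than 75 bp and the farthest at 109830 bp. Within 1000 bp lay 1904 summits, 38.6% (37.2 to 40.0) of those outside, while 3029 lay farther away. With the Otx2 list limited to a −log10 q of at least 10, 2.40% of the summits then outside lay within 1000 bp. The first 50 bp beyond an edge held 392 summits at 23.5 per Mb. The density was 11 per Mb in the next 50 bp, 5.79 per Mb at 450 to 500 bp and 2.78 per Mb at 950 to 1000 bp. The decline outside was gradual, with small reversals between neighbouring bins.

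**Figure D1:**
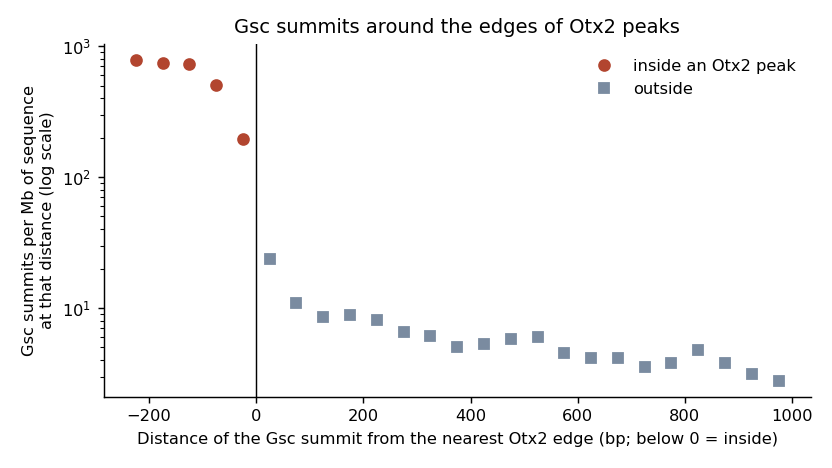
Density of Gsc summits per Mb of chromosome sequence (y axis, log scale) against signed distance in bp from the nearest Otx2 edge (x axis, bins of 50 bp, below 0 inside the peak). Densities rise from 196 per Mb in the 50 bp inside the edge to 783 per Mb at 200 to 250 bp inside, a depth that only wide peaks have, and drop to 23.5 per Mb in the first 50 bp outside.

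Inside Otx2 peaks the summits sat toward the middle. Cut into 10 equal parts of the peak's length, where an even spread would give 10% each, the outermost parts held 4.46% and 4.11% of the summits and the central ones 13.8% and 13.7%. The profile was symmetrical, with 50.6% (49.8 to 51.5) of summits left of the midpoint, and peaks carry no strand. The middle 20% of the peak's length held 27.5% (26.7 to 28.3) of summits against 20% for an even spread, and the outer 20% at both ends together 25.3% (24.5 to 26.0) against 40%. With Otx2 peaks extended by 100 bp at each end, the middle 20% held 44.1%. Extension widens that middle part and adds flanks with few summits, so a higher share was built in and shows no stronger centring. In base pairs, the median distance from the Otx2 midpoint was 56.5 bp, and 71.5% of summits lay within 100 bp of it. Only 214 summits (1.68%) lay within 10 bp of an edge. The whole Gsc interval lay within the Otx2 peak for 84.4% of these summits, at a median width of 84 bp against 346 bp for Otx2. In 100 cases (0.784%) the Otx2 peak lay within the wider Gsc interval.

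How central the Gsc summit was depended on the width of the Otx2 peak. In peaks of 95 to 115 bp, the middle 20% held 45.8% (40.4 to 51.2) of 343 summits, and in peaks of 78 to 94 bp 44.1% of 247 summits. The share was 30.4% of 647 summits in peaks of 142 to 172 bp and 29.7% of 2742 summits in peaks of 268 to 354 bp. In the widest group, 355 to 3343 bp, it was 23.0% (21.9 to 24.2) of 5669 summits, nearer to the even share but above it. Peaks of exactly 66 bp, the smallest width, held 106 summits with 23.6% (15.9 to 32.8) in the middle, an interval that includes the even share. Position followed Gsc strength little and without steady order. The middle 20% held 25.6% of the inside summits in the lowest of 10 groups of Gsc fold and 30.7% (28.5 to 32.9) in the highest, with 24.9% in group 4.

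TLE and p300 summits gave a scale for this centring, since both lists are in the same narrow layout as Gsc. TLE is a corepressor recruited by factors such as Gsc, and p300 is a coactivator that acetylates histones. Over all widths, 29.1% of TLE summits inside Otx2 peaks and 25.4% of p300 summits fell in the middle 20%, with Gsc between them. The TLE and p300 lists are far longer than the Gsc list, and cut to its length by fold their shares were 33.8% and 27.7%. In Otx2 peaks of 268 to 354 bp the shares were 29.7% (28.0 to 31.5) for Gsc, 26.6% (25.8 to 27.3) for TLE and 18.7% (18.1 to 19.4) for p300. In peaks of 116 to 141 bp they were 38.4% (33.9 to 43.2) for Gsc, 38.5% (37.4 to 39.7) for TLE and 32.3% (31.1 to 33.4) for p300. The order of the factors changed with width and with the length of the lists. At 66 bp p300 had the highest share of the full lists, 32.0% (30.3 to 33.8), with 27.9% for TLE and 23.6% for Gsc. At 95 to 115 bp p300, with 39.8% (38.5 to 41.1), and TLE, with 38.4% (37.1 to 39.8), were below the 45.8% (40.4 to 51.2) of Gsc. The p300 interval overlapped those of both TLE and Gsc. The p300 list cut to the Gsc length was instead above Gsc there, at 58.9% (55.3 to 62.5). At 268 to 354 bp that cut list was below Gsc, at 19.3% (17.8 to 20.8). Cut to the Gsc length, TLE was at 51.4% (47.8 to 55) at 116 to 141 bp, above Gsc, and at 31.0% (29.6 to 32.3) at 268 to 354 bp, overlapping it. With 1 library each, these differences have no test. Gsc summits inside Lim1 peaks, the other broad factor list, were less central over all widths, at 21.7% (20.8 to 22.7) in the middle 20%. By width group of the Lim1 list, the share was 44.5% (38.8 to 50.2) in group 4 and 39.1% (33.7 to 44.8) in group 5. In the widest Lim1 group it was 19.5% (18.3 to 20.8) of 3813 summits. Counted per Gsc summit, the Lim1 peaks holding one had a median width of 267 bp and the Otx2 peaks one of 329 bp.

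**Figure D2:**
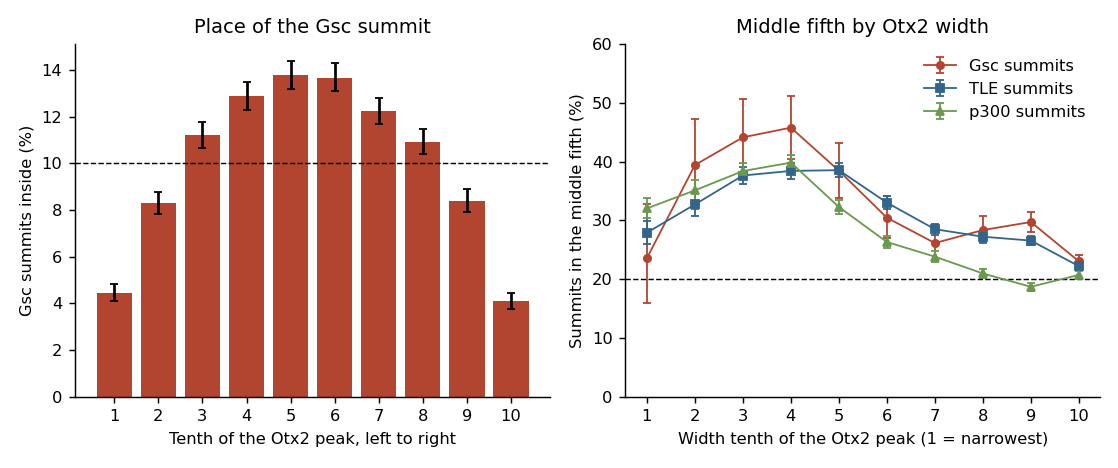
Left, percent of the 12750 inside Gsc summits in each of 10 equal parts of the Otx2 peak (x axis, left edge to right edge), with exact 95% intervals and a dashed line at the even share of 10%. Right, percent of Gsc, TLE and p300 summits in the middle 20% of the Otx2 peak (y axis) by width group of the peak (x axis, 1 is narrowest), with exact 95% intervals and a dashed line at 20%. All 3 series are highest in width groups 4 or 5, and Gsc is at 23.0% in the widest group.

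The summits of the coregulators were also close to those of Gsc. Of the 11025 Otx2 peaks with a Gsc summit, 9486 (86.0%) also held a TLE summit and 9115 (82.7%) a p300 summit. Over all Otx2 peaks these shares were 45.4% and 45.7%. Peaks with a Gsc summit were wider, with a median of 307 bp against 134 bp without. The part of width in these shares was not tested. Taking the summit of highest fold of each factor, the median distance was 26 bp between Gsc and TLE and 44 bp between Gsc and p300. Within 50 bp lay 66.7% (65.8 to 67.7) of the Gsc and TLE pairs and 52.8% (51.8 to 53.8) of the Gsc and p300 pairs. The Gsc summit was thus nearer to the TLE summit than to the Otx2 midpoint, which lay a median of 51 bp away in the same peaks. The midpoint of a broad peak is not a measured maximum of Otx2, so these distances are not of equal kind.

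Counted from the Otx2 list, 11025 of 166593 peaks held a Gsc summit, 6.62% (6.50 to 6.74), or 0.903% with the Gsc list limited to a −log10 q of at least 10. Wide peaks held one far more often than narrow ones. Otx2 peaks were ranked into 10 groups of width. The share rose at each step, from 0.489% (0.40 to 0.591) of peaks at 66 bp through 2.64% (2.40 to 2.90) at 116 to 141 bp and 8.92% (8.49 to 9.37) at 212 to 267 bp to 25.2% (24.5 to 25.9) at 355 to 3343 bp. The share of the widest group was 5.16% with the Gsc list limited to a −log10 q of at least 10 and, in the widest group of an Otx2 list so limited, 64.9%. Peaks of equal width were kept together, so the groups are not of quite equal size. A wider peak offers more room, but the number of Gsc summits per kb of Otx2 peak rose as well, from 0.0741 to 0.206, 0.387 and 0.681 in those groups. The widest group made up 27.1% of the Otx2 sequence and held 44.5% of the inside Gsc summits. The rise per kb was not strictly stepwise, since peaks of 67 to 77 bp had 0.188 and those of 78 to 94 bp 0.175.

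**Figure D3:**
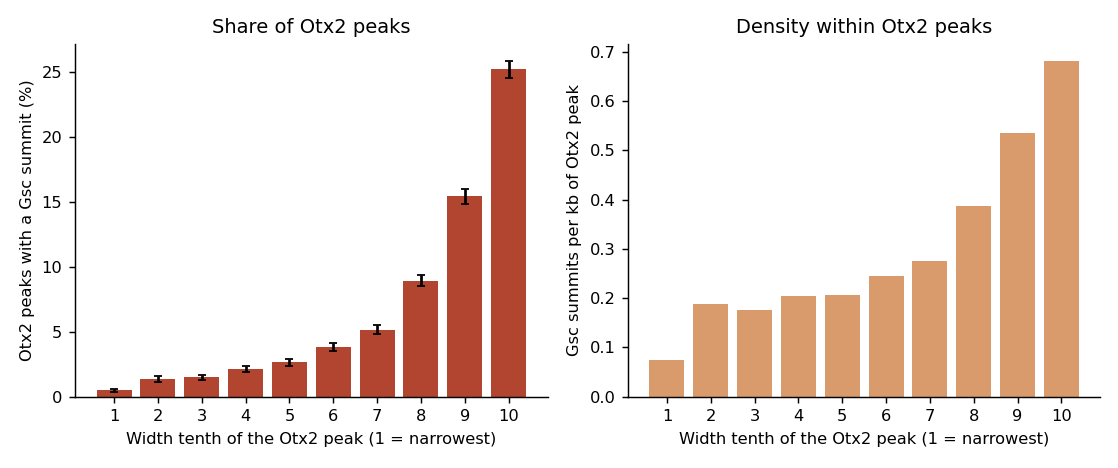
Left, percent of Otx2 peaks holding at least 1 Gsc summit (y axis) by width group of the Otx2 peak (x axis, 1 is narrowest), with exact 95% intervals. Right, Gsc summits per kb of Otx2 peak in the same groups. The share goes from 0.489% to 25.2% and the density from 0.0741 to 0.681 per kb.

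Otx2 strength moved with Gsc at a given width. The median Otx2 fold was higher in peaks with a Gsc summit than without in 10 of the 10 width groups. In peaks of 95 to 115 bp it was 4.48 with and 3.54 without, and in peaks of 268 to 354 bp 5.95 and 4.40. In peaks of 66 bp the values were 3.25 and 3.23. In 10 groups of Otx2 fold alone, the share with a Gsc summit was 1.59% (1.40 to 1.79) in the lowest, 1.42% in the next, and 26.9% (26.3 to 27.6) in the highest. Both properties counted when crossed. Among peaks of 173 to 267 bp, 1.70% (1.40 to 2.04) of those in the lowest 20% of fold held a Gsc summit and 17.6% (16.7 to 18.4) of those in the highest. Among peaks in that highest 20% of fold, the share was 4.53% (3.12 to 6.34) at 66 to 77 bp and 31.1% (30.3 to 31.8) at 268 bp or more. In the lowest 20% of fold it was 0.437% and 8.71% (7.55 to 9.99) for the same widths. The strongest Otx2 peaks still lacked Gsc in more cases than not, as 761 of the 1666 peaks in the highest 1% of fold held a summit (45.7%).

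From the side of Gsc, the strong intervals were almost all in Otx2 peaks. In the lowest of 10 groups of Gsc fold, at 1.57 to 3.62, 54.7% (52.3 to 57.0) of 1787 summits were inside an Otx2 peak. The share was 73.1% (70.8 to 75.2) in the group from 4.88 to 5.20, 92.1% (90.8 to 93.4) from 6.27 to 7.58 and 98.0% (97.3 to 98.6) from 7.59 to 32.5. Conversely, 26.6% of the weakest group and 1.02% of the strongest lay over 1000 bp from Otx2. Of the 177 Gsc intervals in the highest 1% of fold, 176 had their summit inside. With the Gsc list limited to a −log10 q of at least 10, 98.3% (97.6 to 98.9) of 1647 summits were inside and 28 were outside. When the Otx2 list was limited in that way instead, to 8897 peaks, 22.7% of Gsc summits were inside, and 40.1% (39.1 to 41.1) of these Otx2 peaks held one. Most Gsc summits inside Otx2 peaks therefore sat in peaks below that limit. Median Gsc fold was 5.12 inside, 4.31 at 1 to 250 bp and 4.42 beyond 1000 and up to 5000 bp.

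**Figure D4:**
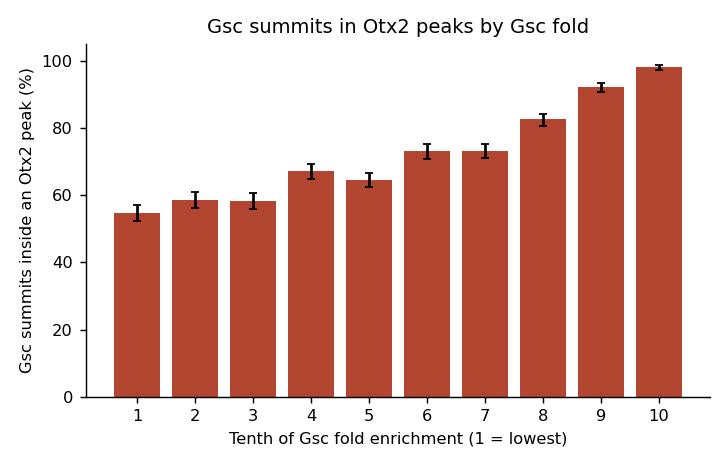
Percent of Gsc summits inside an Otx2 peak (y axis) by group of Gsc fold enrichment (x axis, 1 is lowest), with exact 95% intervals. The share is 54.7% in the lowest group and 98.0% in the highest, with near-equal neighbours among the lower groups.

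For a pair of overlapping peaks, Gsc and Otx2 fold rose together only loosely. Spearman's rho was 0.26 across the 12750 summits inside, and between 0.19 and 0.37 within single width groups. Gsc width followed Otx2 width at a rho of 0.25. These are descriptions across sites of 1 library each, which share the embryo stage and local sequence context.

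The same length of list put Gsc in relation to the coregulators. In full, the 137474 TLE summits were inside Otx2 peaks in 57.3% of cases and the 151050 p300 summits in 53.8%. Limited to the 17683 summits of highest fold, the number of Gsc summits, 92.1% (91.7 to 92.5) of TLE and 78.1% (77.5 to 78.7) of p300 summits were inside. Gsc, with 72.1%, was below both at equal length. The cut keeps only strong TLE and p300 peaks while the Gsc list holds weak ones too, and its strongest group was at 98.0%. Lim1 peaks, which cover 0.799% of the chromosomes, held 38.5% (37.8 to 39.2) of Gsc summits.

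Most occupied Otx2 peaks had a single Gsc summit. Of the 11025, 9736 (88.3%) held 1, 1004 held 2, 194 held 3 and 91 held 4 or more, up to 9. Several summits thus occurred in 1289 peaks, 11.7% (11.1 to 12.3). The share was 17.7% when every listed summit was counted, 6.78% with the Gsc list limited to a −log10 q of at least 10 and 5.01% with both lists so limited. Peaks with several summits were wider, with a median of 552 bp against 290 bp for peaks with 1 summit and 134 bp for peaks with none. Median width rose to 494 bp with 2 summits, 741 bp with 3 and 1189 bp with 4 or more. Median Otx2 fold did not follow, at 5.44 with 1 summit, 5.23 with 2, 4.56 with 3, 4.24 with 4 or more and 3.58 with none. Median Otx2 −log10 q was 7.25, 7.43, 5.19, 5.34 and 2.43 in the same order, without a steady fall. The part of width in these values was not tested. Below 142 bp no Otx2 peak held several. In the widest group, 25.7% of the occupied peaks did.

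Neighbouring Gsc summits in 1 Otx2 peak were a median of 221 bp apart, from 80 to 1451 bp, over 1725 pairs. Each Gsc interval counts with 1 summit here, so closer summits within 1 interval are not seen. Intervals have at least 56 bp, and how far this limits the spacing was not tested. Lone summits were the more central. A lone summit fell in the middle 20% in 30.6% (29.7 to 31.6) of cases and in the outer parts in 19.6% (18.8 to 20.4). Where a peak held several, 17.2% (15.9 to 18.6) were in the middle and 43.7% (41.9 to 45.5) in the outer parts, and the strongest of them gave 19.2% and 40.0%. These shares were not matched for width. Of the 1289 peaks with several, 1071 were in the widest group, where all inside summits gave 23.0% and 32.6%. Summits at least 80 bp apart can also seldom share the middle. The part of width and spacing in the contrast was not tested. Intervals with several listed summits of their own rarely crossed an edge. Of 1149, 1109 had every summit in 1 Otx2 peak, 33 had some inside and some outside and 7 had none inside. Among the 33 were 2 with summits in more than 1 Otx2 peak.

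Otx2 peaks with several Gsc summits were rich in the other libraries. Lim1, the LIM-homeodomain partner of Otx2, was met by 13.6% of Otx2 peaks without Gsc, 48.4% of those with 1 summit, 84.6% with 2 and 97.9% with 3. H3K27ac, a mark of active enhancers and promoters, was met by 14.5, 31.7, 59.9 and 87.6% in the same order, and H3K4me1, a mark of enhancers, by 25.3, 47.3, 75.6 and 94.3%. TLE was at 46.6, 86.8, 88.5 and 89.2%, with 95.6% of peaks with 4 or more summits, and p300 went from 48.5 to 82.9, 95.3 and 99%. Width rose along the same series, and its part in these shares was not tested.

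Gsc summits outside Otx2 peaks were poor in the corepressor. TLE peaks held 82.1% (81.4 to 82.7) of summits inside Otx2, 16.0% (14.3 to 17.7) at 1 to 1000 bp and 4.46% (3.75 to 5.25) beyond, while TLE peaks cover 2.23% of the chromosomes. For p300 the shares were 76.9, 26.4 and 10.5%, at a coverage of 2.08%, and for Lim1 45.7, 31.0 and 12.9%. The marks differed from each other near Otx2, where only H3K27ac was higher than inside. H3K27ac held 28.8% (28.0 to 29.6) of inside summits, 34.9% (32.7 to 37.1) of those at 1 to 1000 bp and 13.0% (11.8 to 14.3) of those beyond. H3K4me1 fell at each step, from 38.2% (37.3 to 39) to 34.6% (32.5 to 36.8) and 8.65%. H3K27ac peaks cover 2.13% of the chromosomes and H3K4me1 peaks 3.43%. No peak of these 5 lists held 1.54% of the inside summits, 35.7% of those within 1000 bp and 73.4% (71.8 to 75) of those farther away. The TLE contrast was also present within broad groups of Gsc fold, in which inside summits still reach higher folds than distant ones. In the highest 20% of Gsc fold, TLE held 85.8% of 3362 inside summits and 15.9% of the 88 summits over 1000 bp away, and in the lowest 20% of fold 79.0% of 2007 and 3.01% of 896.

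The pairs strongest in both factors were shared by nearly every library. Positions are those of the lists, counted from 1, on a build that no source used here names, so no gene is assigned to them. The 10 Gsc summits with the highest lower percentile of the pair of folds lay in Otx2 peaks of 145 to 267 bp, while the top group of Gsc fold as a whole lay in Otx2 peaks with a median of 379 bp. Each of the 10 was in a peak with a single Gsc summit, which is usual at these widths. Of occupied Otx2 peaks, 0.622% held several at 142 to 172 bp and 2.93% at 212 to 267 bp. Of the 10 summits, 9 also lay in peaks of the other 5 lists. Of all inside Gsc summits, 82.1% lay in TLE peaks, 76.9% in p300, 45.7% in Lim1, 38.2% in H3K4me1 and 28.8% in H3K27ac. The share of inside summits in all 5 lists was not computed, and other pairs of like fold were not compared. On chromosome 9, the Gsc interval 80295853 to 80296022 had a Gsc fold of 32.1 and its summit at base 77 of a 179 bp Otx2 peak (80295847 to 80296025) with an Otx2 fold of 15.4. The highest Otx2 fold on the chromosomes, 19.2, was at 89101856 to 89102024 on chromosome 7, where the Gsc summit was at base 74 of 169 with a Gsc fold of 27.2. The highest Gsc fold on the chromosomes, 32.5, belonged to the interval 131794160 to 131794372 on chromosome 3, inside a 230 bp Otx2 peak with an Otx2 fold of 12. In all 10 the relative position was between 0.29 and 0.62 of the peak's length.

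Other regions showed 1 factor without the other. The strongest Otx2 peaks with no Gsc interval within 1000 bp lay at 27162601 to 27162726 on chromosome 7, with an Otx2 fold of 17.6, and at 193109275 to 193109468 on chromosome 1, with an Otx2 fold of 16.7. They ranked 7 and 8 in the Otx2 list. All 5 of the peaks named by this rule met Lim1, TLE and p300 peaks. Of all Otx2 peaks without a Gsc summit, 13.6% met Lim1, 46.6% TLE and 48.5% p300. The 5 are extremes of Otx2 fold, and other peaks of like fold were not compared. Of all Gsc summits inside Otx2 peaks, 10% had a Gsc fold above 8.21, and the median was 5.12. The 5 strongest Gsc summits over 1000 bp from Otx2 were at 9.18 to 11.9, below the 10 pairs above, at 21.3 or more. The first, at 104325832 to 104325924 on chromosome 7, had a Gsc fold of 11.9 at 1507 bp from the nearest Otx2 peak and lay in Lim1, p300, H3K4me1 and H3K27ac peaks but in no TLE peak. The next, at 16783424 to 16783493 on chromosome 6, had a Gsc fold of 10.3 at 3477 bp and lay in TLE, p300 and H3K27ac peaks. The last of the 5, at 55407202 to 55407276 on chromosome 5 with a Gsc fold of 9.18, lay in none of the 5 other lists.

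The Otx2 peaks named for the most Gsc summits were wide and not high in Otx2 fold. Their Otx2 −log10 q, from 3.08 to 9.52, was above the list median of 2.54. The widest Otx2 peak, 72497504 to 72500846 on chromosome 4, held 9 Gsc summits with Gsc folds of 2.15 to 3.81, at an Otx2 fold of 2.71. Next came 8 peaks tied at 7 summits, of which the rule names the 4 narrowest, with widths of 1287 to 2040 bp and Otx2 folds of 2.48 to 4.18. The narrowest of them, on chromosome 6 at 128797104 to 128798390, had Gsc folds of 4.05 to 6.24. All 5 named peaks met peaks of every other library, as did nearly all peaks of their kind. Of the 91 Otx2 peaks with 4 or more Gsc summits, 100% met Lim1 and 100% p300. H3K4me1 was met by 98.9% of these 91, H3K27ac by 97.8% and TLE by 95.6%. There were 297 Otx2 peaks over 1000 bp, and the 478 Gsc summits in them were 3.75% of those inside.

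By chromosome, the share of Gsc summits inside an Otx2 peak varied within 8.11 percentage points (3.10 to 13.0). With the Gsc list limited to a −log10 q of at least 10 the difference was 3.43 points (-1.26 to 7.31), and with both lists limited 29.7 points (12.5 to 45.7). These ranges subtract opposite ends of the intervals of the highest and the lowest chromosome and are not binomial intervals themselves. Both chromosomes were picked anew in each setting, so the difference itself cannot be negative. Chromosome 3 had the lowest share, 69.2% (67.0 to 71.4) of 1764, and chromosome 10 the highest, 77.3% (74.5 to 80.0) of 913. Chromosome 8 followed with 75.4% (73.4 to 77.4) of 1827, and the other 8 chromosomes, including chromosome 3, lay between 69.2 and 73.0% with intervals that overlap their neighbours'. Chromosome 10 is the shortest, at 39.9 Mb, and the densest in both factors, with 22.9 Gsc intervals and 156 Otx2 peaks per Mb. Over the other 9, Gsc ranged from 12.8 to 15.5 and Otx2 from 122 to 142 per Mb. Otx2 peaks covered 3.02% of chromosome 10 and 2.22 to 2.65% of the others. The share of summits inside relative to the covered share was therefore lowest on chromosome 10, at 25.6 times, against 28.5 to 31.6 times elsewhere.

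Chromosome 10 also stood out when counted from Otx2. There 9.01% (8.31 to 9.75) of 6218 Otx2 peaks held a Gsc summit, while the others lay between 6.06% on chromosome 3 and 7.18% (6.69 to 7.69) on chromosome 9. Of its occupied Otx2 peaks, 18.9% (15.8 to 22.4) held several Gsc summits, against 9.57% on chromosome 3 to 14.7% (12.2 to 17.4) on chromosome 9. The position inside the peak varied little, with 25.8% (22.6 to 29.2) in the middle 20% on chromosome 10 and 29.2% (26.7 to 31.9) on chromosome 3. Summits outside Otx2 peaks lay a median of 1135 bp away on chromosome 10 and 2001 bp on chromosome 3.

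**Figure D5:**
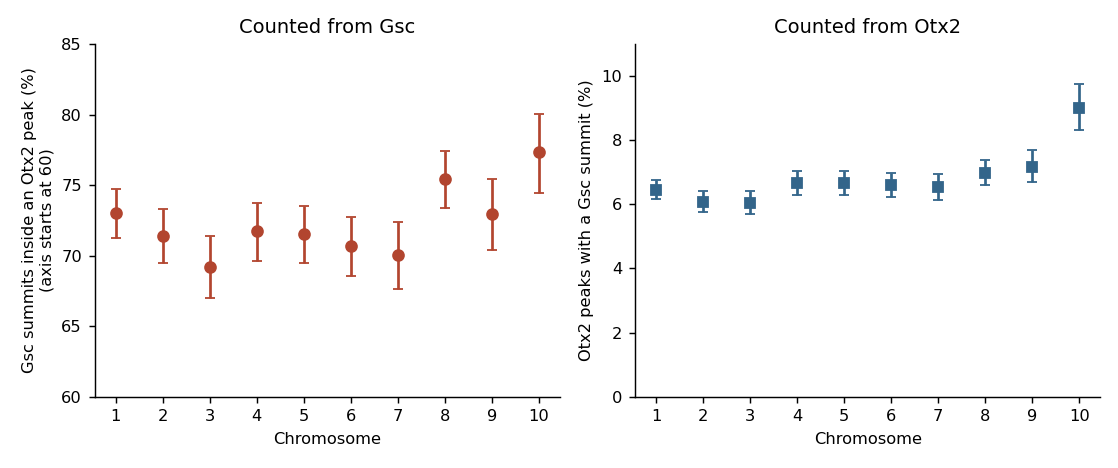
Left, percent of Gsc summits inside an Otx2 peak by chromosome (y axis from 60%), and right, percent of Otx2 peaks with a Gsc summit, with exact 95% intervals of counting error. Chromosome 10 is highest in both panels, at 77.3% and 9.01%.

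Toward chromosome ends the rise in density was larger for Gsc than for Otx2. In the outer 5 Mb at each end there were 26.4 Gsc intervals per Mb against 11.8 per Mb at more than 20 Mb from an end, while Otx2 peaks went from 151 to 129 per Mb. Of Otx2 peaks in the outer 5 Mb, 9.95% (9.48 to 10.4) held a Gsc summit. The share was 7.13% (6.88 to 7.39) at 5 to 20 Mb from an end and 5.99% (5.85 to 6.13) in the interior. Of Gsc summits, however, 72.0% (70.3 to 73.7) in the outer 5 Mb and 73.3% (72.4 to 74.1) in the interior were inside Otx2 peaks. Between them, at 5 to 20 Mb, this share was lower, at 69.6% (68.3 to 70.9). Chromosome 10, at 39.9 Mb, lies wholly within 20 Mb of an end, and its part in these shares was not tested. Local crowding of Otx2 went with Gsc only among the more crowded peaks. Of Otx2 peaks with no other Otx2 peak within 5 kb of the midpoint, 6.08% (5.85 to 6.32) held Gsc. The share was 5.95% with 1 other, 6.30% with 2 and 7.81% (7.43 to 8.20) with 3. With 4 or more others it was 10.5% (9.96 to 11). Median widths in these classes were 140 to 145 bp.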

How the data were processed

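ChIP-seq peak lists of Gsc and Otx2 were compared, with TLE, p300, Lim1, H3K4me1 and H3K27ac lists for reference. Per the submitters' processing notes the tools were MACS2 and deepTools, versions unstated. For the aligner, the genome build and the filters, nothing was found: not given in the sources used here. As deposited by the authors, each line holds an interval, a fold enrichment (a ratio), a −log10 p and a −log10 q, a score that is 10 times the −log10 q without decimals, and, in the narrow lists, the summit offset. Each list belongs to 1 library, and its length depends on a read depth that is unknown.

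Repeated lines of 1 interval were reduced to 1. Summits were placed in Otx2 peaks, and coordinates are counted from 1. Chromosome length was taken as the last peak end in any list. Shares carry exact (Clopper-Pearson) 95% intervals from scipy 1.17.1, with pandas 2.3.3. No p-value was computed, since each factor has 1 library. Placement was tested on simulated data. A gene table of another assembly was not used, so no region is tied to a gene and no sequence is shown. Regions were named by rule: the 10 strongest pairs by their lower fold percentile, the 5 strongest Gsc intervals and the 5 strongest Otx2 peaks over 1000 bp from the other factor, the 5 Otx2 peaks with the most Gsc summits and the widest one. Members and comparisons were chosen with earlier results of these data known.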

Additional observations from a re-analysis of the deposited data

Results flagged for a closer look

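Sequences other than the chromosomes entered none of the comparisons above, and below only the setting with unplaced sequences. On those sequences, 74.6% (95% exact binomial interval 73.7 to 75.6) of 8647 Gsc summits lay inside an Otx2 peak, against 72.1% on the chromosomes. The mitochondrial sequence held 12 Gsc intervals and 18 Otx2 peaks, and 9 of the 12 Gsc summits lay inside an Otx2 peak.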

How the results depend on the processing

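No paired analysis was possible because each factor has 1 library. Of 137 recomputed values, 97 stayed within the 95% counting interval of the value reported, or, for the chromosome difference, within its range of interval ends. Most of the 97 came from settings that left out 1 chromosome, in which 10 of 10 values stayed for every result. Such settings keep most of the same summits, so their values could move little. Among the other settings, more values moved than stayed. The values that moved follow in a fixed order: Gsc summits inside, Otx2 peaks with Gsc, summits in the middle 20%, widest Otx2 peaks with Gsc, occupied peaks with several, and outside summits within 1000 bp. At a Gsc −log10 q of at least 10 they were 98.3, 0.903, 29.8, 5.16, 6.78 and 46.4% (of 28). The chromosome difference was then 3.43 points (-1.26 to 7.31, from the interval ends), which counts as staying. At that limit for Otx2 they were 22.7, 40.1, 31.5 and 64.9%, with 2.40% near and no move for several. With both limited they were 51.2, 8.97, 34.0, 22.3, 5.01 and 3.36%, and chromosomes differed by up to 29.7 points. With unplaced sequences they were 72.9, 7.98, 25.7, 30.4, 15.6 and 45.7%, with no chromosome difference computed. Otx2 peaks extended by 100 bp gave 75.3% inside, 6.90% with Gsc, 44.1% central and 32.9% near. Merging Otx2 peaks under 250 bp apart gave 6.80% with Gsc, 26.0% central, 24.3% of the widest and 12.9% with several. Every listed summit gave 74.2% inside and 17.7% with several, any overlap 74.2% and 6.80% with Gsc, and Gsc midpoints 30.5% central. The highest group of Otx2 fold, in place of width, held Gsc in 26.9%. Without Otx2 peaks over 1000 bp, a choice made after seeing the data, 69.4% were inside and 10.8% of occupied peaks held several. A shortened Gsc list cannot occupy more Otx2 peaks than the full one, and a shortened Otx2 list cannot hold more Gsc summits. The direction of the falls in those shares was thus set by the cut. The cause of these moves was otherwise not tested.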

Other observations

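Gsc summits and Otx2 peaks were unevenly spread over the 1268 full windows of 1 Mb, and every window held at least 1 Gsc summit. The median window had 12 Gsc summits and 131 Otx2 peaks, and the counts of the factors had a Spearman's rho of 0.53 over windows, which share local sequence and density. The window with the most Gsc summits, on chromosome 8 from 97000001 to 98000000, held 114 of them, 109 of these inside an Otx2 peak, with 148 Otx2 peaks. The next, on chromosome 10 from 3000001 to 4000000, held 82 Gsc summits and 222 Otx2 peaks. These windows were chosen after their values were seen.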
